A study of Mus musculus with 5 samples.

Results

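The comparison described here set the ventromedial hypothalamus of mice 6 h after the last of 7 electroconvulsive shocks against that of mice 2 h after the last of 7 shocks. It uses 2 of the 5 arrays of the series, chosen by their titles alone: 1 array at 6 h and 1 array at 2 h. All animals were C57Bl/6 mice under isoflurane. The electroconvulsive shock (ECS), in which current passed between the ears sets off a generalised seizure, was given 1 time or 7 times, and sham animals were handled alike without current and collected at 2 h. The nucleus was cut from thin stained sections by laser, RNA of 2 or 3 animals was pooled for each Affymetrix array, and a small amount of it was amplified before labelling. Neither the age of the mice nor the spacing of the 7 shocks is stated in the labels, and a second set of animals that the design mentions was not analysed here. The labels disagree on the nucleus, with VMH in titles and tissue source and PVN in the description, and marker genes of both are given below.

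The ventromedial hypothalamus (VMH) is a nucleus of mostly glutamatergic neurons known for its part in satiety, glucose balance and defensive and reproductive behaviour. A seizure drives strong calcium entry into neurons, which switches on immediate early genes within minutes. Most of these encode transcription factors with short-lived transcripts, and they are followed by effector genes that act at synapses, in growth factor signalling and as brakes on the signal itself. A sample at 2 h and one at 6 h therefore see different stages of that sequence.

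With 1 pooled array on each side, every value below lacks a replicate error and a test. Genes were called higher or lower at 6 h by size alone, at a log2 difference of at least 1 (2-fold). The 2 arrays had nearly the same brightness, with median deposited signals of 31.6 at 2 h and 30.9 at 6 h, and their kept probe sets were shifted by -0.02 on the log2 scale. The 3' to 5' ratio of the Gapdh control, a sign of RNA integrity and amplification, was 5.88 and 5.55, and that of the beta-actin control was 0.783 and 0.593. Readings below are MAS5 signals with the pseudocount of 1.2 included, rescaled to the median of the 7-shock 2 h array, and every log2 difference is 6 h minus 2 h. Readings are compared between arrays for 1 gene, never between genes.

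Of 6658 genes measured, 456 (6.85%) were at least 2-fold higher at 6 h and 459 (6.89%) at least 2-fold lower, 13.7% in all. The median of all genes was 0.02, and 48.2% of them lay below 0. The share past 2-fold was 25.2% in the dimmest of 4 equal brightness classes and 2.76% in the brightest, so a dim gene past 2-fold stands among many and a bright one among few. Of 230 genes past 2-fold with a second kept probe set, 147 (63.9%) had the same sign on it and 41 (17.8%) were past 2-fold on it too.

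**Figure D1:**
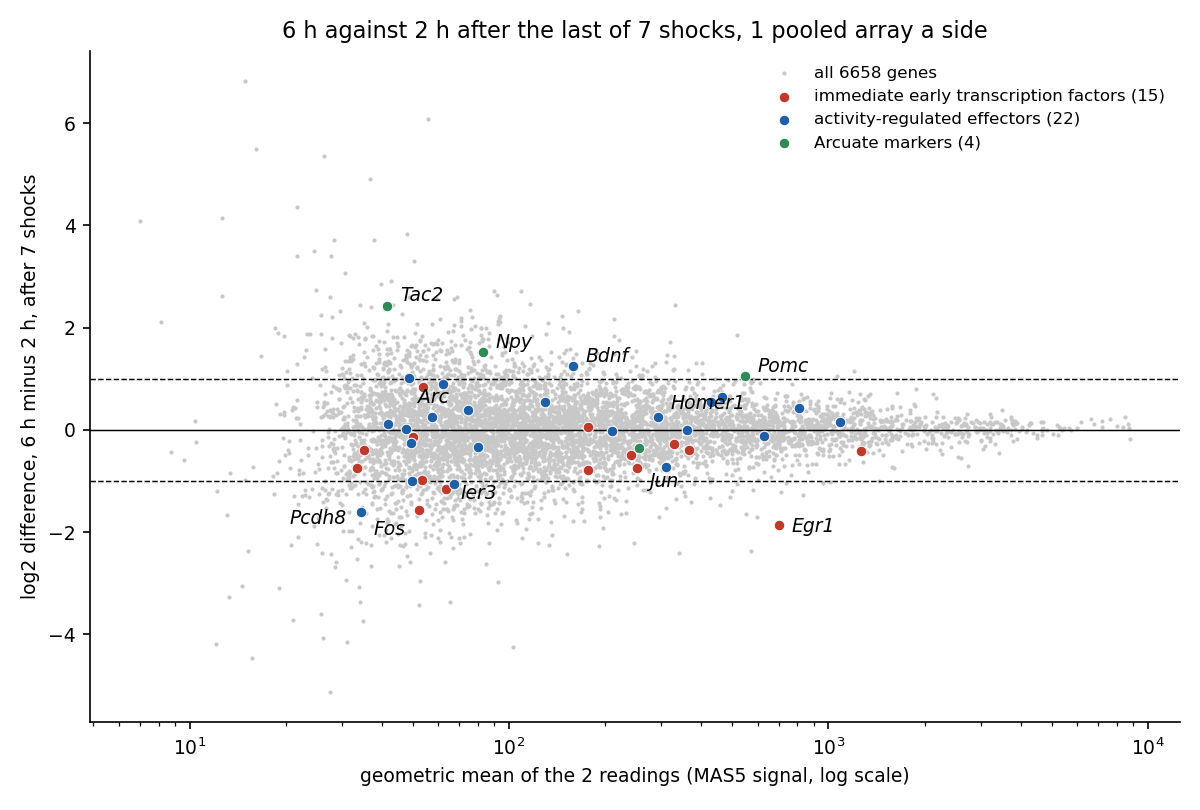
Log2 difference between the 6 h and the 2 h array after 7 shocks (vertical axis) against the geometric mean of the 2 readings (horizontal, log scale), 1 point per gene, with the dashed lines at 2-fold. The scatter narrows toward bright genes, where Egr1 at -1.87 and Pomc at 1.05 lie outside it.

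Immediate early transcription factors read lower at 6 h than at 2 h. Of 15 measured members, 13 lay below 0, 3 were at least 2-fold lower and 0 at least 2-fold higher, with a list median of -0.49 against 0.02 over all genes. The share past 2-fold in the lower direction was thus 3 of 15, beside 6.89% of all genes. Of these 3, Egr1 lay in the brightest of 4 brightness classes, where 2.76% of genes passed 2-fold in either direction. Fos and Ier3 lay in the second dimmest, where 18.1% did. Egr1, a zinc finger factor used as a marker of neuronal activity, read 1341 at 2 h and 368 at 6 h, a difference of -1.87 (3.65-fold lower). It read 312 in sham, 1802 at 2 h after 1 shock and 391 at 6 h after 1 shock. Both 6 h arrays were thus close to the sham level of Egr1 and both 2 h shock arrays far above it. Fos, the AP-1 subunit most often used to map active neurons, read 90.1 at 2 h and 30.5 at 6 h (-1.56), with 15.1 in sham and 221 and 27.9 at 2 h and 6 h after 1 shock. The 2 h reading of Fos after 7 shocks was well under that after 1 shock, while the 6 h readings lay side by side and above sham. Ier3, the third of the lower members, is a stress-inducible survival factor and not itself a transcription factor. It read 94.8 and 42.7 (-1.15), both times after 7 shocks, against 76.7 in sham, so that its 6 h reading was below sham. In pooled tissue, fewer responding cells and less RNA per cell cannot be told apart.

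The promoters of 3 of these factors are shown because they carry, close to the start, the letters of elements through which calcium and growth factor signals are known to switch on immediate early genes. The cAMP response element (CRE) binds CREB, and the CArG box binds the serum response factor. Each sequence runs from 250 bases before to 50 after the start on the plus strand, from RefSeq for GRCm38.p6, at chr12:85473640-85473939 for Fos, chr10:67537619-67537918 for Egr2 (1 of 5 listed starts) and chr15:79347270-79347569 for Maff (1 of 3). Capitals mark the motifs, searched on both strands.
Fos: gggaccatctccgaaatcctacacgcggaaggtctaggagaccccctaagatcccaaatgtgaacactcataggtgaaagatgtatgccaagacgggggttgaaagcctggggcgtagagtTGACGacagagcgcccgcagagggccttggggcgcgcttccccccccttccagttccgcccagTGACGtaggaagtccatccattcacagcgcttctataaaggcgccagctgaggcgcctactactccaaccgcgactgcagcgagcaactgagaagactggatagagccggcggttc
Egr2: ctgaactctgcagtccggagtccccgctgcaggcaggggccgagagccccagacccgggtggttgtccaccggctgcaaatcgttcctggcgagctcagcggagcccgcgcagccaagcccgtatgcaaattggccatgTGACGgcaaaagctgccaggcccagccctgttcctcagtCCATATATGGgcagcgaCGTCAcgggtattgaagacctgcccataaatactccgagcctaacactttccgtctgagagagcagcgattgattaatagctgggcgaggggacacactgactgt
Maff: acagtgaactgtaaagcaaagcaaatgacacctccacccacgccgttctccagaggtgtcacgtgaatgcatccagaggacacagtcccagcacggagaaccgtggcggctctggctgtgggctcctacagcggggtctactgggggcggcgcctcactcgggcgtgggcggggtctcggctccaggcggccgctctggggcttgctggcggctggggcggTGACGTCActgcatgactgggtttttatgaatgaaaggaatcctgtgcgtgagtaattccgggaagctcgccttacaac
In Fos the capitals are core CREs (TGACG) beginning 129 and 66 bases before the start. In Egr2 they are a core CRE at 111 bases, a CArG box at 72 and a core CRE on the other strand at 55, and in Maff a full CRE (TGACGTCA, which holds the core CRE on both strands) at 29. Of the 15 measured factors, 11 had a window in the table, and 6 of the 11 held a core CRE, 2 a CArG box and 1 a full CRE. Of all 27025 genes with a window, 23.0% held a core CRE, 1.81% a CArG box and 2.03% a full CRE. These matches describe the letters in the window only.

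The other immediate early factors stayed within 2-fold between 2 h and 6 h on their brightest probe sets. With the mean of a gene's probe sets, 5 of 15 factors were at least 2-fold lower, since Egr2 and Jun then passed. Maff, the small Maf protein with the full CRE above, read 74.9 and 38.2 (-0.97), against 23.9 in sham. Egr2, a relative of Egr1, read 232 and 135 (-0.79, and -1.71 on its other probe set), and at 6 h it was still far above the sham reading of 37.3. Jun, the partner of Fos, read 325 and 194 (-0.74) on its brightest probe set and differed by -2.21 on the other. Its sham reading was 92.2. Klf10, a factor of the Kruppel-like family induced by growth signals, read 286 and 204 (-0.49), against 43.7 in sham and 97.5 at 6 h after 1 shock. Egr2, Jun and Klf10 thus had 6 h readings above both sham and the single-shock 6 h array, as did Fos, Maff, Fosb, Srf and Ier5. Fosb (40.3 and 30.7), the serum response factor Srf (418 and 318), Jund and Ier5 differed by -0.28 to -0.41. The growth-linked factor Myc read 43.5 and 25.8 (-0.75), both below its sham reading of 86.5. Only Klf6 at 0.06 and Crem at 0.85 lay above 0. Crem, whose gene also encodes a repressor of CRE-driven transcription, read 40.2 at 2 h and 72.3 at 6 h.

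Of the 30 factors listed, 28 had a probe set with a single gene name and 13 of these were too dim to be kept. Since such a filter keeps genes partly through the arrays on which they are high, the dim members matter. With no filter, 19 of 28 lay below 0, with a median of -0.38. Of these 28, 7 were at least 2-fold lower, where 13.3% of all genes were, and 6 at least 2-fold higher. By deposited signal, Egr3 read 36.7 at 2 h and 13.9 at 6 h and Nr4a3 37.4 and 10.5, whereas Nr4a2 read 21.8 and 60.7 and Klf4 10.1 and 55.2. Nr4a1 read 28.8 and 27. The dim members therefore ran in both directions.

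**Figure D2:**
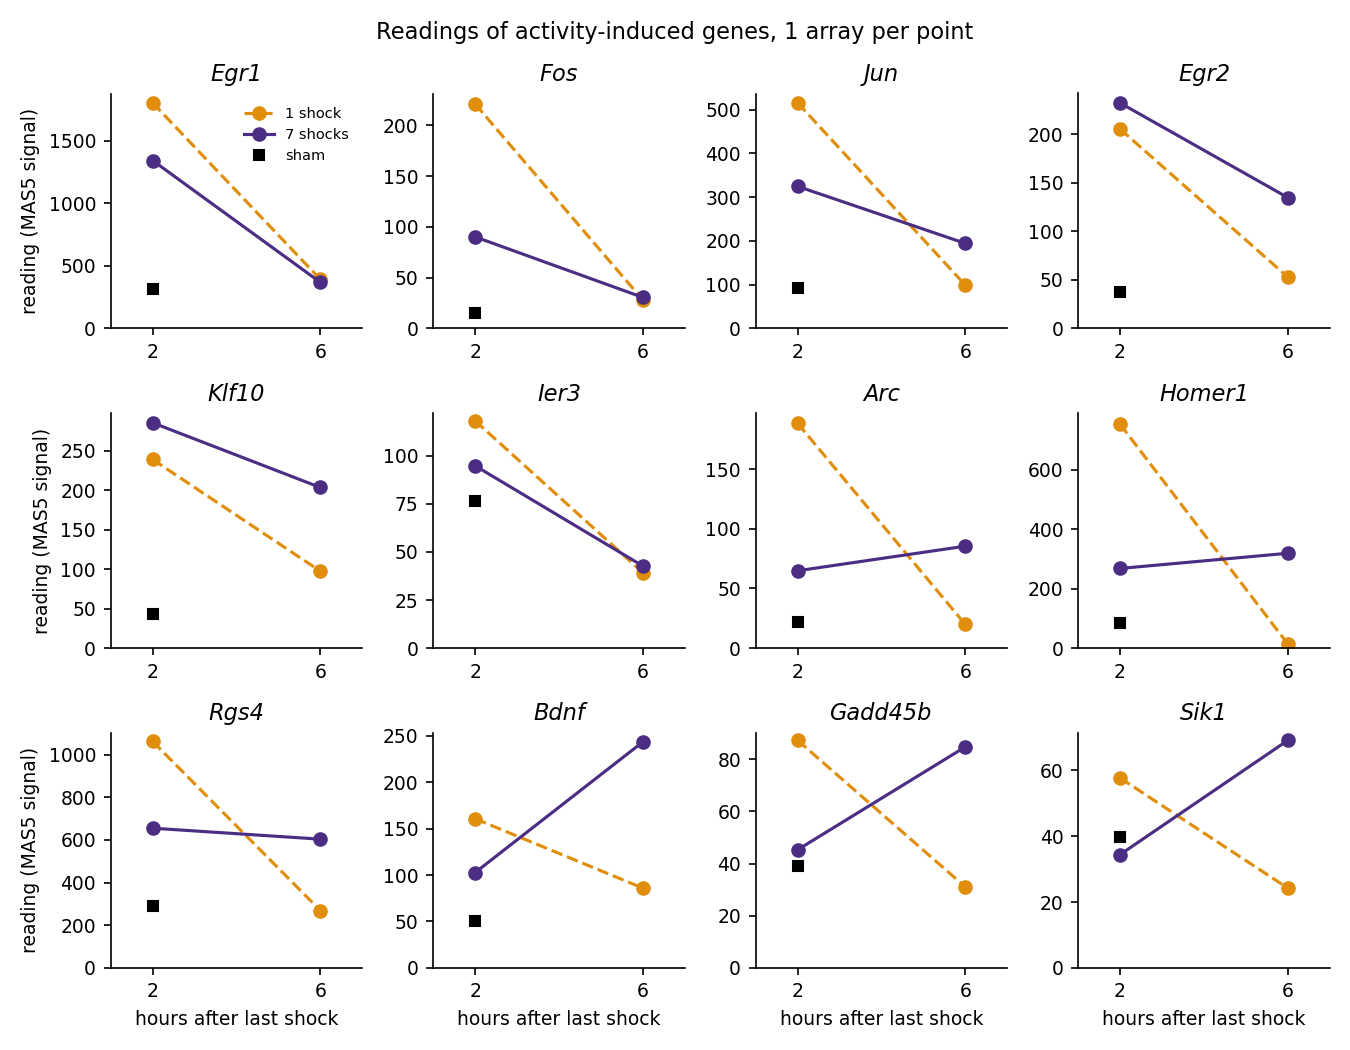
Readings (MAS5 signal, linear axis from 0) of 12 activity-induced genes at 2 h and 6 h after the last of 7 shocks (solid) or after 1 shock (dashed), with sham as a square; each point is 1 pooled array. Egr1, Fos, Jun, Egr2, Klf10 and Ier3 are lower at 6 h on both lines, while Arc, Homer1, Bdnf, Gadd45b and Sik1 are lower at 6 h only on the 1-shock line.

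Effector genes lay on both sides of 0. Over 22 measured members the list median was 0.14, with 13 above 0. At least 2-fold higher were 2 and lower 3, beside 6.85% and 6.89% of all genes. Of these, Sik1, Pcdh8 and Per1 lay in the dimmest brightness class, where 25.2% of genes passed 2-fold. Bdnf, the neurotrophin that supports synaptic strengthening, read 103 at 2 h and 244 at 6 h, a difference of 1.25. Its 6 h reading was the highest of all 5 arrays, the others being 50.6 in sham and 161 and 86.0 at 2 h and 6 h after 1 shock. Sik1, a CREB-induced kinase that damps CREB signalling, read 34.4 and 69.1 (1.01), against 39.9 in sham. Gadd45b, linked to activity-dependent DNA demethylation, read 45.3 and 84.8 (0.90), against 38.9 in sham. These 3 genes read higher at 6 h than at 2 h after 7 shocks and lower at 6 h than at 2 h after 1 shock.

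Synaptic effectors differed by less than 2-fold between the 2 arrays. Arc, which governs AMPA receptor traffic at synapses, read 64.8 and 85.4 (0.40), against 21.5 in sham. The postsynaptic scaffold Homer1 read 268 and 319 (0.25) on the probe set used, with others down to -0.87, and its sham reading was 84.5. Rgs4, a brake on G-protein signals, read 655 and 603 (-0.12), with probe sets up to 0.97, against 288 in sham. The pentraxins Nptx1 and Nptx2, which cluster AMPA receptors, differed by 0.43 and 0.64, the enkephalin precursor Penk by 0.54 (356 and 517) and the kinase Plk2 by 0.54. Sgk1 read 361 and 360, and Nab2, a corepressor of Egr factors, 54.1 and 45.3 (-0.25).

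The effectors at least 2-fold lower at 6 h were Pcdh8, Per1 and Tiparp. Pcdh8, a protocadherin that regulates cadherin turnover at active synapses, read 59.8 and 19.7 (-1.60), against 40.6 in sham. The clock gene Per1, which is also induced by activity and glucocorticoids, read 97.1 and 46.5 (-1.06), against 38.1 in sham. Tiparp, an ADP-ribosyl transferase, read 70.3 and 35.1 (-1.003), with its 3 probe sets from -3.19 to -0.37. Dusp6, a phosphatase that switches off ERK, was the 1 member past 2-fold among 11 measured genes of MAPK and growth factor feedback, at 80.3 and 30.3 (-1.41). The feedback list had a median of -0.07. Over all genes 13.7% passed 2-fold in either direction.

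The same time step after a single shock shares no array with this comparison and is the closest to it in design. There, 10 of the 15 immediate early factors were at least 2-fold lower at 6 h (list median -1.59), where 7.87% of all genes were. Of the 22 effectors, 8 were at least 2-fold lower and 0 higher (median -0.72), and of the 11 feedback genes 5 were lower and 1 higher (median -0.92). Arc differed by -3.25, Homer1 by -5.77, Rgs4 by -1.98 and Fosb by -3.53 after 1 shock, beside 0.40, 0.25, -0.12 and -0.39 after 7. The difference after 7 shocks was the higher of the pair for 17 of 22 effectors, 11 of 15 immediate early factors and 9 of 11 feedback genes, beside 47.6% of all genes. With 1 array per group, this difference between the time steps could not be tested. The single-shock 6 h array also stands apart: it read at least 4-fold below each of the other arrays for 24 genes, where the others did so for 6 to 9. Across the 1-shock step the Gapdh 3' to 5' ratio went from 8.77 at 2 h to 5.37 at 6 h and that of beta-actin from 0.889 to 1.10, where the ratios after 7 shocks were those given above. Homer1 read 13.8 on the single-shock 6 h array, under its sham reading. The 7-shock 6 h array in turn was at least 4-fold above each of the others for 10 genes, where those were for 1 to 8. Markers of cortex and amygdala, regions where Arc, Homer1 and Bdnf are strongly expressed, also differed between the arrays. Summed over the 3 measured of 8, they read 819 in sham, 662 and 275 at 2 h and 6 h after 1 shock, and 1402 and 1071 after 7. The cortical factor Tbr1 read 79.5, 76.4 and 2.27, and then 135 and 158, in the same order. The sum was mostly Camk2a, at 1139 and 809 at 2 h and 6 h after 7 shocks. After 7 shocks the sum was lower at 6 h than at 2 h, and Tbr1 was higher. Arc, Homer1 and Bdnf also read higher on the probe sets used. At 2 h after 1 shock the sum was below sham, with Cck at 93.2 against 88.8 in sham. Arc, Homer1 and Bdnf read above sham there. The part of the single-shock 6 h array, of RNA quality and of these markers in the contrast was not tested.

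**Figure D3:**
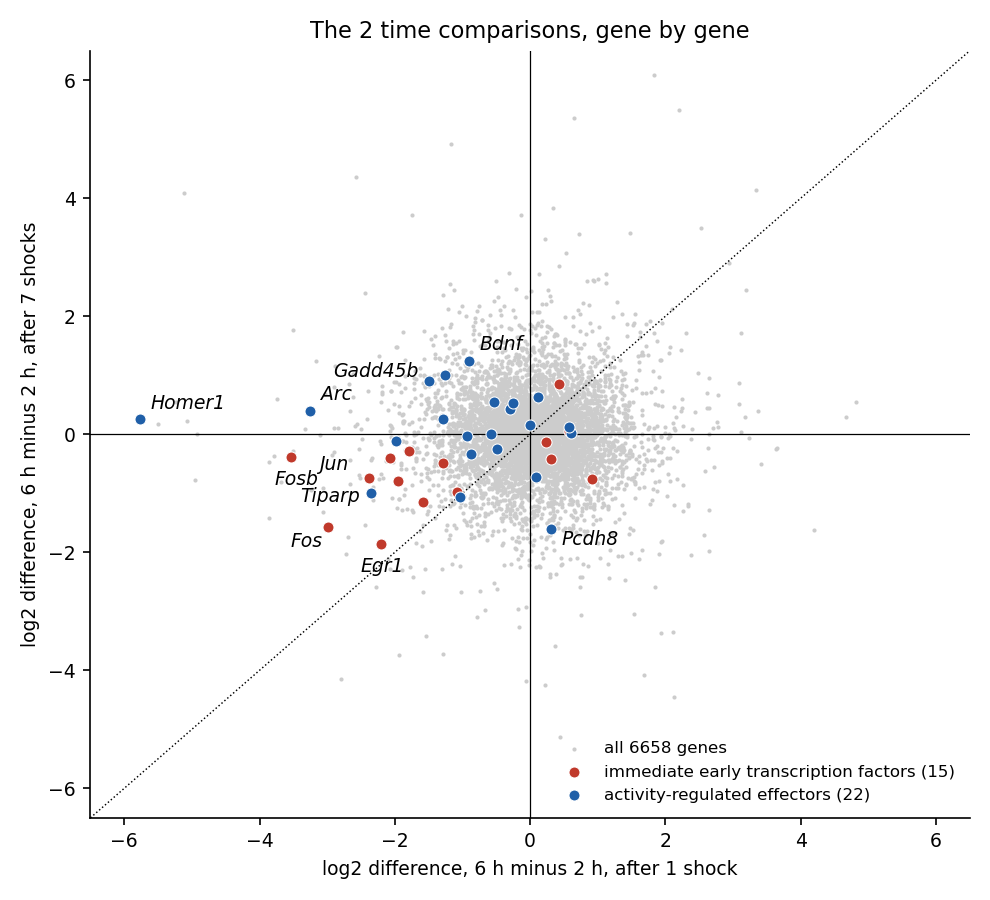
Log2 difference between 6 h and 2 h after 7 shocks (vertical) against the same after 1 shock (horizontal), 1 point per gene, with the line of equality dotted. The effectors (blue) reach from -5.77 to 0.60 after 1 shock and from -1.60 to 1.25 after 7, and over all genes the 2 differences have a correlation of 0.000138.

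Across all 6658 genes the differences after 7 shocks and after 1 shock were uncorrelated, with Pearson's r of 0.000138 and Spearman's rho of -0.02. Genes share the 4 arrays and are not independent, so these are descriptions. Of the 456 genes higher after 7 shocks, 66 (14.5%) were also higher after 1 shock, which is 12.1% of the 546 called there, and 61 (13.4%) were lower. Of the 459 lower genes, 67 (14.6%) were also lower after 1 shock, 12.8% of the 524 called there, and 55 (11.98%) were higher. The calls after 1 shock made up 8.2% of all genes in the higher and 7.87% in the lower direction.

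Egr1 was among the 10 genes furthest in the shared lower direction. Sertad1, a transcriptional coregulator of the cell cycle, read 420 and 86.6 after 7 shocks (-2.28) and 546 and 130 after 1 shock (-2.07), with 207 in sham. It was thus above sham on both 2 h shock arrays and below it on both 6 h arrays. Car4, a membrane carbonic anhydrase, read 211 and 63.2 (-1.74), with -2.70 after 1 shock, and Eras, a Ras relative, 128 and 9.56 (-3.74), with -1.94. The remaining 6 were Arap3, Otub2, Stac2, Col1a2, Aph1a and Ganab, and Ganab differed by 0.98 on its other probe set, and by 1.31 there after 1 shock. In the shared higher direction, Tle4, a Groucho corepressor, read 176 and 577 (1.71), with 1.83 after 1 shock and 311 in sham. Zfand2a, a stress-inducible zinc finger gene, read 79.4 and 301 (1.92, its 4 probe sets from 0.57). After 1 shock it differed by 1.77 on that probe set and by -0.30 to 0.03 on the other 3. Ank1, an ankyrin that anchors membrane proteins, read 34.0 and 148 (2.12 and 2.13 on its pair of probe sets), but the pair gave 2.10 and -1.25 after 1 shock. The other 7 were Ptpre, Phka1, Fuca2, Tmem141, Rbpj, Heph and Pacs2, and Ptpre differed by -0.34 on its other probe set. After 1 shock the other probe sets of Fuca2, Phka1 and Tmem141 differed by 0.30, 0.50 and 0.86.

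Genes whose kept probe sets all passed 2-fold in 1 direction numbered 15 higher and 17 lower. Il17ra, a subunit of the interleukin-17 receptor, read 408 and 132 (-1.63 and -1.30 on its pair), with 161 in sham and 338 at 2 h after 1 shock. Tnfrsf12a, the injury-induced receptor for TWEAK, read 101 and 34.5 (-1.55 and -1.70), with 42.3 in sham. On these probe sets both were high on the 2 h shock arrays and below sham at 6 h, but their other probe sets differed by 0.27 and -0.30 after 1 shock. Dtymk, the thymidylate kinase, read 293 and 96.1 (-1.61 and -1.36), Mthfd1, a folate enzyme, 237 and 106 (-1.16, the other -1.96), and Rmdn3, a tether between mitochondria and the endoplasmic reticulum, 606 and 229 (-1.40, the other -3.82). The corepressor Tle3, the autophagy syntaxin Stx17, Ivd, Zc3h7a, Mmab, Tprkb and Iars were lower by 1.07 to 1.63 on their brightest probe sets.

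In the higher direction, Aco1, the cytosolic aconitase that doubles as an iron-regulatory protein, read 73.4 and 367 (2.32, the other probe set 1.11). Star, which carries cholesterol into mitochondria for steroid synthesis, read 37.6 and 137 (1.86 and 1.28), with 190 at 2 h after 1 shock. Nrip1, a nuclear receptor corepressor, read 17.2 and 63.0 (1.87 and 1.75). The ubiquitin ligase Siah1a read 133 and 293 (1.14, up to 1.93), the zinc finger repressor Zbtb14 217 and 495 (1.19, up to 1.67) and the SNARE protein Use1 256 and 632 (1.30 and 1.12). Ears2 differed most, by 4.92 and 3.98, from a deposited signal of 5.5 at 2 h, below the 25th percentile of all values (6.1). Elovl1, Topors, Tmem141, Ank1 and Mettl21a completed the 12 furthest.

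The 12 genes furthest each way were taken from those whose kept probe sets all had 1 sign. Both signals also had to be at or above the 25th percentile, and the brighter at or above its array's median. These genes tended to be dim on one of the arrays. Larger differences lay outside these limits, as for Rbpj at 5.50, from a deposited signal of 1.2 at 2 h. Mup5 read 449 at 2 h and 23.7 at 6 h (-4.25) and between 10.8 and 15.5 on the other 3 arrays, so its 2 h reading was the one out of range. Rgs16, another brake on G-protein signals, read 89.4 and 7.42 (-3.59), the chemokine Cxcl12 209 and 20.3 (-3.36), the sialyltransferase St3gal1 170 and 16.0 (-3.42), the sialidase Neu1 259 and 33.0 (-2.97) and the kinase Mapk8 (JNK1) 114 and 17.99 (-2.67). Arap3, Eras, Arfgap3, Dlc1, Reep3 and Agk were also among the 12 lowest, at -4.14 to -2.68. Of those higher, Plek, a platelet and myeloid protein kinase C substrate, read 12.7 and 181 (3.84), the stress sensor Sesn2 9.6 and 64.0 (2.74) and the MAPK-interacting kinase Mknk1 27.9 and 170 (2.61). Atl3, Spr, Fuca2, Dguok, Plk4, Tmem185b, Phka1, Ubxn10 and Mtcp1 were higher by 2.71 to 3.72. Each of these 24 genes except Fuca2, Phka1 and Reep3 had a single kept probe set.

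Appetite and energy balance genes went both ways. Of 20 members on the array 10 were measured, and 7 of these 10 lay below 0 (median -0.58). At least 2-fold lower were 3 and higher 2, beside 6.89% and 6.85% of all genes. The members past 2-fold other than Bdnf lay in the 2 dimmest of 4 brightness classes, where 25.2% and 18.1% of genes passed. Htr1b, a serotonin receptor that inhibits transmitter release, read 111 and 34.2 (-1.70), against 95.8 in sham. Foxo1, the transcription factor that insulin excludes from the nucleus, read 134 and 49.8 (-1.42), and 138 and 51.8 after 1 shock, with 66.5 in sham. It was high on both 2 h shock arrays and low on both 6 h arrays. Ptpn1, a phosphatase that damps insulin and leptin signals, read 126 and 55.1 (-1.20, the other probe set -0.62), and the insulin receptor substrate Irs2 70.1 and 38.8 (-0.85). In the other direction, Htr2c, the serotonin receptor that promotes satiety, read 19.7 and 70.7 (1.84), against 32.9 in sham, and the leptin signal transducer Stat3 64.9 and 125 (0.94).

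Neuropeptides and their processing enzymes had a median of 0.05 over 26 genes. At least 2-fold higher were 3 and lower 0, beside 6.85% and 6.89% of all genes. These 3 were peptides of the neighbouring arcuate nucleus. Tac2, the neurokinin B precursor, read 17.9 and 96.7 (2.43), with 57.4 in sham. Npy, the appetite-stimulating neuropeptide Y, read 48.9 and 140 (1.52), with 103 in sham, and Pomc, the melanocortin precursor, 381 and 790 (1.05, and 0.48 on its other probe set), with 483 in sham. Cartpt, an arcuate peptide found in other hypothalamic nuclei too, read 289 and 225 (-0.36). Summed over the 4 measured of 7 arcuate markers, the reading was 737 at 2 h and 1252 at 6 h, and 667 to 940 on the other 3 arrays. The 6 h array was thus the highest of 5 for this sum. Somatostatin (Sst) and galanin (Gal) differed by 0.61 and 0.91, and granins and convertases stayed between -0.37 (Pcsk1) and 0.26 (Scg2). How far arcuate tissue in the cut contributes to the peptide readings was not tested.

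Markers of the VMH itself stayed within 2-fold on the probe sets used. Of 8 listed, 5 were measured and all lay between -0.23 and 0.15. Adcyap1, the PACAP precursor, read 1639 and 1400, the steroidogenic factor gene Nr5a1 147 and 156, the vesicular glutamate transporter Slc17a6 609 and 673, Cbln1 935 and 808 and Foxp1 184 and 185, with other probe sets of Foxp1 up to 1.70. The summed reading was 3513 and 3222. Paraventricular and supraoptic markers summed to 280 and 287, with Oxt at 63.0 and 62.3, Avp at 56.0 and 36.2 and Trh at 161 and 188. In sham, Oxt read 19.7 and Avp 11.8. Sim1 and Otp stayed below the filter, at deposited signals of 14.3 and 7.8 and of 3 and 2.8. Markers of both nuclei were thus among the kept genes, though the filter keeps a gene by its mean over all arrays. Which of the VMH and PVN labels is right was not tested.

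**Figure D4:**
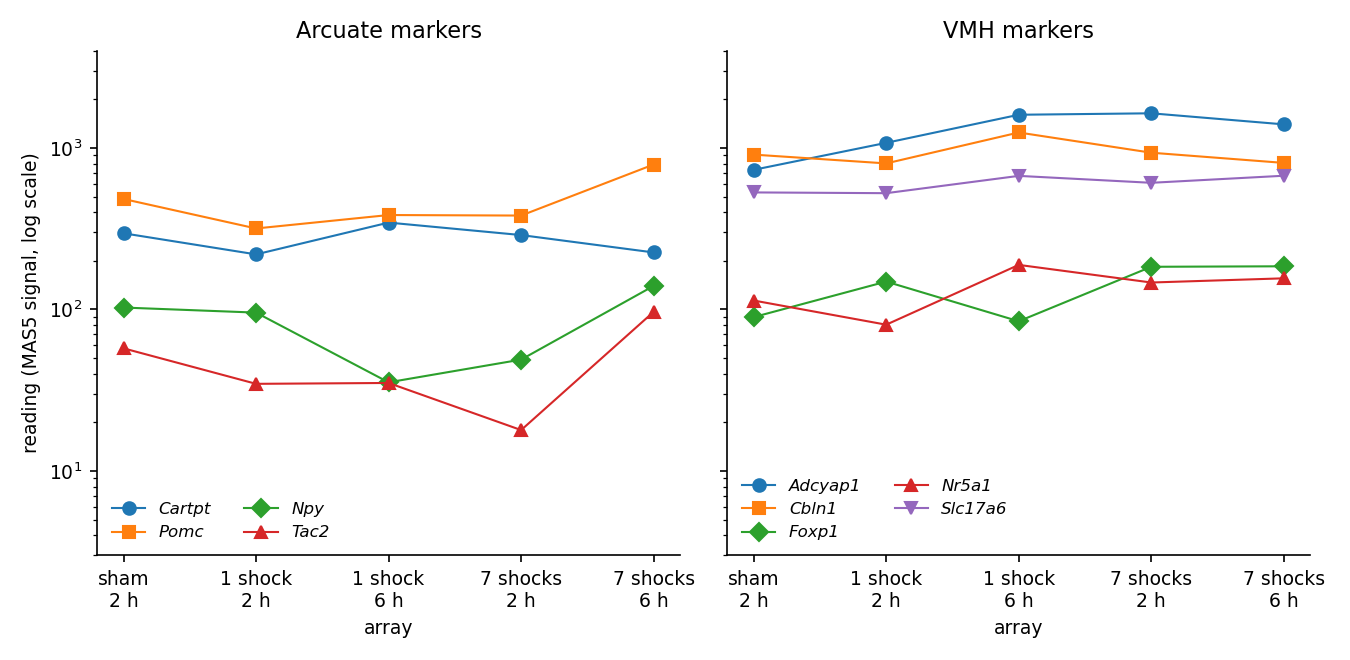
Readings (MAS5 signal, log scale) of the measured arcuate (left) and VMH (right) markers on each of the 5 arrays, 1 point per array, with lines joining a gene's points only to guide the eye. Tac2, Npy and Pomc are highest on the 7-shock 6 h array, where Nr5a1 reads 156 and Slc17a6 673.

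Markers of the main cell classes had summed readings as follows, at 2 h and then 6 h. Neuron markers summed to 18776 and 19732 (9 of 9 measured), astrocyte markers to 6409 and 7097 (8 of 8), oligodendrocyte markers to 6376 and 6585 (7 of 10), microglial markers to 2064 and 2019 (7 of 10), and cortical and amygdalar markers to 1402 and 1071 (3 of 8). The microglial sum was carried by C1qb, a complement subunit, at 873 and 586 (-0.57, its 3 probe sets up to 1.33), whereas 5 of the 7 genes lay above 0, with a list median of 0.30. Within it Aif1, a cytoskeletal protein of microglia, read 28.3 and 61.9 (1.13). Endothelial and pericyte markers summed to 349 and 537 (5 of 9 measured), and all 5 lay above 0, with a median of 0.75, from 0.44 for the tight junction protein Cldn5 to 0.87 for the angiopoietin receptor Tek. Of ependymal and choroid markers 1 of 6 was measured and of blood markers 0 of 3. The endothelial markers too dim to be kept were all lower at 6 h by deposited signal. Pecam1 was at 18 and 0.6, Flt1 at 32.5 and 18.4, Kdr at 13.5 and 1.3 and Vwf at 24.2 and 7.1. Of the kept ones, Rgs5 differed by -0.27 on another probe set. The endothelial and pericyte list therefore ran in both directions. Ttr, a choroid plexus marker also too dim, was at 4.8 and 28.7. The 3 measured Y-linked genes lay between -0.07 and 0.36.

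**Figure D5:**
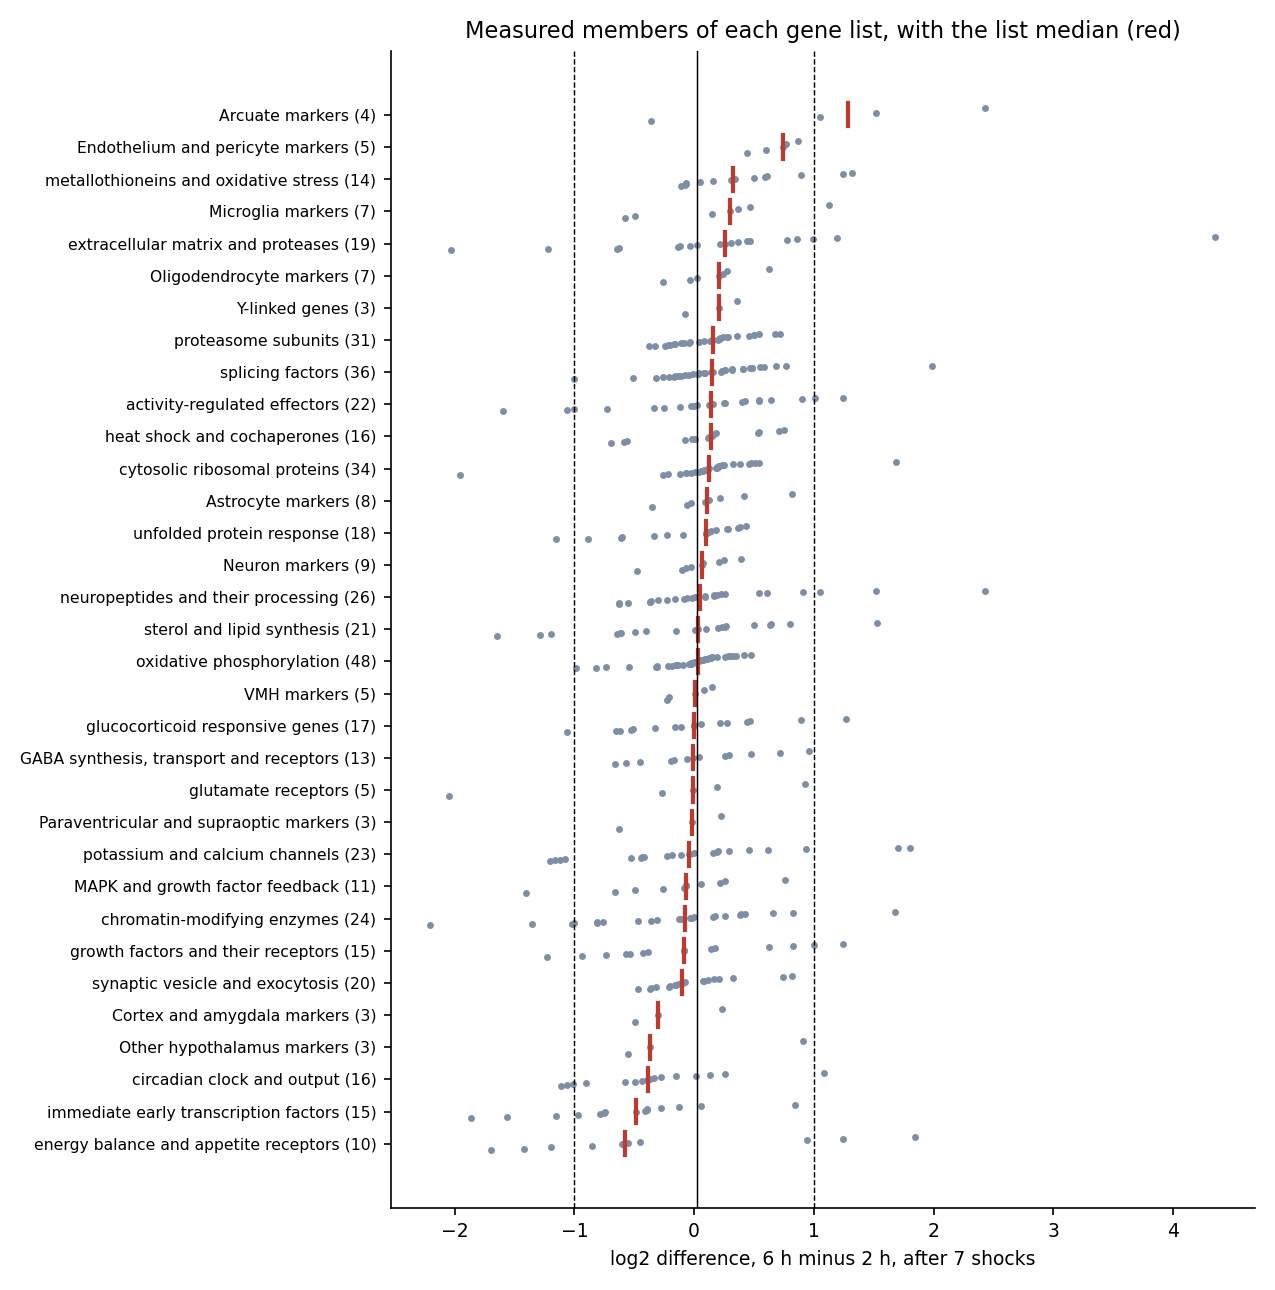
Log2 difference between 6 h and 2 h after 7 shocks for every measured member of each gene list with at least 3 measured genes (points), with the list's median as a red bar, the median of all genes as a solid line and 2-fold as dashed lines; the number of measured genes is in brackets. Energy balance genes (-0.58) and immediate early factors (-0.49) have the lowest medians and arcuate markers (1.28) the highest.

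Clock genes lay mostly below 0, at 12 of 16 with a median of -0.38. Csnk1e, a kinase that marks Per proteins for decay, differed by -1.11, Per1 by -1.06 and Clock by -1.01 (0.59 on its other probe set), and Bhlhe40, a repressor that is also activity-induced, read 198 and 106 (-0.91). Per3 differed by 1.08. The labels give no time of day for the collections, so hours after shock and hour of the day cannot be told apart. Glucocorticoid-responsive genes had a median of -0.00 over 17, with Gpd1, a glycerol phosphate dehydrogenase, read at 54.2 and 131 (1.27) and Per1 as the members past 2-fold. After 1 shock 9 of these 17 were at least 2-fold lower at 6 h, beside 7.87% of all genes.

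Ion channels and receptors had medians near 0 with members on both sides. Beside the members below, 13.7% of all genes passed 2-fold. Of 23 potassium and calcium channel genes, the L-type calcium channels Cacna1c (19.0 and 66.3, 1.80) and Cacna1d (24.8 and 80.5, 1.70) were higher. The P/Q-type channel Cacna1a (-1.16), the auxiliary subunit Cacnb4 (-1.20), the calcium-activated potassium channel Kcnn2 (-1.12) and the G-protein-gated channel Kcnj3 (-1.07) were lower. Among 5 measured glutamate receptors, the AMPA subunit Gria4 read 79.8 and 19.3 (-2.05), and 0 of 13 genes of GABA synthesis, transport and reception passed 2-fold, with Gad1 nearest at 0.96 (-0.45 on its other probe set). Growth factor genes (15 measured, median -0.09) held Igfbp3 at -1.23 and Igf1r, the receptor of insulin-like growth factors, at 1.00 beside Bdnf. Cacna1c, Cacna1d, Kcnn2, Kcnj3, Gria4 and Igfbp3 lay in the dimmest brightness class, where 25.2% of genes passed 2-fold in either direction. Cacna1a and Igf1r lay in the second dimmest, where 18.1% did, and Cacnb4 and Bdnf in the second brightest, where 8.89% did.

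Metabolic, stress and chromatin genes gave single members rather than whole lists. Of 14 oxidative stress genes 10 lay above 0 (median 0.32), with Srxn1, which repairs peroxiredoxins, at 244 and 607 (1.32, its 4 probe sets from 0.26 to 1.80) and Mt3, the neuronal metallothionein, at 48.6 and 115 (1.24). Mt2 differed by 0.89 and Mt1 by -0.11. Of 21 sterol and lipid genes, the fatty acid synthesis enzyme Acaca (-1.29), the sterol regulator Srebf2 (-1.20) and Lss (-1.64, but 1.54 on another probe set) were lower, and the cholesterol carrier Stard4 read 44.5 and 128 (1.53). Of 24 chromatin enzymes 4 were lower and 1 higher, beside 6.89% and 6.85% of all genes. All of these lay in the 2 dimmest of 4 brightness classes, where 25.2% and 18.1% of genes passed 2-fold in either direction. The lower ones were the remodeller subunit Smarcc1 (265 and 57.5, -2.20, the other probe set -1.03), the demethylase Kdm5b (-1.35), Hdac7 (-1.02) and Kat2a (-1.001, 0.55 on its other probe set). The higher one was Kat2b (32.4 and 104, 1.68). The matrix protease Adamts1, at 4.8 and 98.2 (4.35), and Lamb1 (1.20) were higher, and Col1a2 (-2.03) and Vcan (-1.22) lower, among 19 matrix genes. The deposited 2 h signal of Adamts1 was 3.6, below the 25th percentile of all values (6.1). All but Col1a2 lay in the dimmest brightness class, where 25.2% of genes passed 2-fold.

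Housekeeping groups had few members past 2-fold. None of 48 oxidative phosphorylation genes (median 0.03), 31 proteasome subunits (0.16), 20 synaptic vesicle genes (-0.10) and 16 heat shock genes (0.14) passed 2-fold. Of 34 ribosomal protein genes (0.12), Rpl12 (-1.96) and Rps25 (1.68) did, of 36 splicing factors (0.15) Sf3a2 (1.99), and of 18 genes of the unfolded protein response (0.10) Sdf2l1 (-1.16). Many of these genes are bright, and 2.76% of genes in the brightest class passed 2-fold, beside 13.7% of all genes. The complex I subunit Ndufa6 (1.25), given in the closing section, is not among the 48 listed oxidative phosphorylation genes measured. Of 24 inflammation genes only 2 were measured, Nfkbia at -0.65 and Vcam1 at 0.34.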

How the data were processed

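The table held 22690 probe sets on 5 arrays. Per the submitters' processing notes, the authors deposited MAS5 output, a linear intensity per probe set. Its software version and target intensity were not given in the sources used, and detection calls were not used here. Probe sets were named through the platform annotation: 64 controls, 691 with several symbols and 1555 with none were left out, and 20351 of the remaining 20380 matched a RefSeq gene by ID. Before taking log2, 1.2 (the 10th percentile over the table) was added to each value. The top 50% of probe sets by mean signal over the 5 arrays were kept (10390, 6658 genes, 2451 of them with several), each array was centred on its median, and a gene took its brightest kept probe set.

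Genes were named by rule: members of a list that passed 2-fold or had one of its 4 largest differences; the 12 furthest each way with probe sets of 1 sign, both signals at or above the 25th percentile and the brighter at or above its array's median; up to 12 each way with all of several probe sets past 2-fold; and the 10 each way furthest in both time comparisons. Unnamed clones entered the counts alone. Further list members, such as Egr2, Jun, Klf10, Arc, Homer1, Rgs4 and Gadd45b, were named outside these rules. They were not part of the checks of single named genes under other settings. Genes of the brightest class in the closing section were chosen after their values were seen. Dim list members were chosen after their values were seen, and so were the 3 promoters, for which the window with most motif matches was taken. The comparison, the lists and the rules were chosen with earlier results of these data known. The computation was tested on simulated data. Python 3.11.15 with numpy 2.4.6 and pandas 2.3.3, and limma 3.58.1 in R 4.3.3 for cyclic loess, were used.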

Additional observations from a re-analysis of the deposited data

Results flagged for a closer look

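Several named genes were past 2-fold in opposite directions between 6 h and 2 h after 7 shocks and after 1 shock. The difference between the 2 time steps was not tested, since each group is 1 array. Higher at 6 h after 7 shocks and lower after 1 were Ears2 (4.92 and -1.17), Adamts1 (4.35 and -2.57), Atl3 (3.72 and -1.75), Tmcc2 (2.44 and -1.13), Star (1.86 and -1.17), Kat2b (1.68 and -1.25), Npy (1.52 and -1.43), Srxn1 (1.32 and -1.22), Gpd1 (1.27 and -1.56), Aif1 (1.13 and -1.04) and Sik1 (1.01 and -1.25). Lower after 7 shocks and higher after 1 were Cxcl12 (-3.36 and 1.94), Mydgf (-1.26 and 1.15), Sdf2l1 (-1.16 and 1.08) and Iars (-1.07 and 1.55). In each pair the first value is the log2 difference after 7 shocks, on the brightest probe set. Other probe sets did not all show the opposition: Iars gave -1.41 and -0.31, Tmcc2 0.69 and 0.11, Mydgf -0.07 and 0.05 on one and -1.19 and 0.91 on another, Star 1.28 and -0.08, and Ears2 3.98 and -0.79. Those of Srxn1 gave 0.26 to 1.80 after 7 shocks and -0.87 to -0.40 after 1. Over all genes, 61 of the 456 higher and 55 of the 459 lower ones were past 2-fold the other way after 1 shock. Past it the same way were 66 and 67 of them. After 1 shock 7.87% of all genes were at least 2-fold lower and 8.2% higher.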

How the results depend on the processing

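With no filter on low values, 1648 genes passed 2-fold upward and 1647 downward, and 691 were called the same way in both time comparisons. In the top 25% by mean these counts were 107, 114 and 20, against 456, 459 and 133. Fewer or more genes enter under those 2 settings. These 3 counts stayed within 1.5 times under the other alternatives, namely signals left unscaled, quantile or cyclic loess normalization, a pseudocount of 0 or 6.1, a filter over the 4 shock arrays or by mean log2 (added after seeing the data), the mean of a gene's probe sets, and leaving out probe sets with a cross-hybridisation suffix. The immediate early median of -0.49 was -0.38 with no filter and -0.62 with the filter by mean log2, and within 0.1 of its value otherwise. The 3 immediate early factors lower by 2-fold were 5 with the mean of probe sets, 7 of 28 with no filter, 2 of 12 without suffixed probe sets and 1 of 8 in the top 25%. The 3 lower and 2 higher effectors were 1 and 1 with the pseudocount of 6.1, 0 and 1 of 11 in the top 25%, and 5 and 2 of 28 with no filter. With signals left unscaled, or without suffixed probe sets, 3 were lower and 1 higher, and with quantile normalization 2 and 2. The effector median of 0.14 was 0.24 in the top 25% and 0.0151 without suffixed probe sets. The correlation between the time comparisons moved by less than 0.1 in all of them.

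Of 147 named genes past 2-fold, 105 were past it in every setting that could give them a value. Without suffixed probe sets the sign turned for Ganab (0.98), Ehd1 (0.40), Pcbp3 (0.0841), Hadh (0.0715), Gpt2 (1.49), Ythdf1 (0.25) and Wdr1 (0.20). With the mean of probe sets it turned for Mkrn1 (-0.11) and Brwd1 (0.51), and with the filter over the 4 shock arrays for Ptpre (-0.34). No paired analysis was possible because each group is 1 array. The number of arrays limits the precision of every value.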

Other observations

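Among the brightest of 4 equal brightness classes, where scatter was least, 27 were at least 2-fold lower and 19 higher at 6 h after 7 shocks, of 1665. They were described after their values were seen. Egr1 was the third lowest of them, after Ehd1, an endosomal recycling protein (-2.42, but 0.41 and 0.46 on its other probe sets), and the peptidase Dnpep (-2.36, with its 4 probe sets from -2.36 to 0.90). The ubiquitin ligase Trim27 read 530 and 163 (-1.70), and its 3 probe sets lay between -1.79 and -0.75. Others were Ebag9 (-1.71), the insulin receptor adaptor Grb10 (-1.64, 0.08 on its other probe set), the mitochondrial carrier Slc25a23 (-1.31), the axon initial segment anchor Ank3 (-1.30, its 3 probe sets all below 0) and Wfs1 (-1.01), a calcium-handling protein of the endoplasmic reticulum. None of these other 8 genes was 2-fold lower after 1 shock, where Trim27 differed by -0.76 and Ank3 by 0.34.

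On the higher side of the same class stood Tmcc2 (142 and 772, 2.44, 0.69 on its other probe set), the nucleolar protein Noc4l (273 and 986, 1.85), Tle4, the helicase Dhx30 (1.47, its 3 probe sets from 0.19), and the ceramide synthases Cers5 (1.32) and Cers4 (1.18). Cers5 read 197 and 492 and Cers4 217 and 492, and their differences after 1 shock were -0.01 and -0.56. The secreted matrix protein Spon1 (1.31) and the complex I subunit Ndufa6 (1.25) were also higher. Each of Noc4l, Tle4, Cers4, Cers5, Spon1 and Ndufa6 rests on a single kept probe set.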
